A study of Mus musculus with 2 samples.

Results

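Transcripts of 8 endothelial junction genes were measured in the brain of mice labelled Shank3-/-: Cldn5, Ocln, Tjp1, Cdh5, Pecam1, Pcdh12, Jam2 and Esam. The genes were taken by symbol, and all 8 of 8 were found among the 33696 genes counted in each of 2 droplet libraries. The first library came from Shank3-/- mice given vehicle (labelled MOCK), and the second from Shank3-/- mice that drank water with fluconazole for 2 weeks. Fluconazole is an azole antifungal that inhibits fungal sterol 14-alpha-demethylase. Both groups carry the Shank3 knockout, which removes a scaffold protein of excitatory synapses, and no wild-type library was analysed here. The allele, age, sex and number of mice per library are not given in the sources used here. The design text gives the tissue as prefrontal cortex and the sample labels as brain. The extraction text describes nuclei and the design text cells and nuclei, so the droplets are called barcodes. With 1 library per treatment there is no replicate, so no p-value is given and every 95% interval covers counting error only.

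Endothelial cells of the brain are sealed to each other by tight junctions, adherens junctions and adhesion molecules of the lateral border, which together limit leakage between cells and form the core of the blood-brain barrier. Cldn5 encodes claudin-5, the main claudin of brain endothelium, and Ocln encodes occludin; both span the membrane in tight junction strands. Tjp1 encodes ZO-1, the cytoplasmic scaffold that ties these strands to actin and that is also used by epithelial, glial and neuronal junctions. Cdh5 encodes VE-cadherin, the adhesion receptor of endothelial adherens junctions. Pecam1 (CD31), Jam2 (JAM-B) and Esam encode immunoglobulin-domain adhesion proteins of endothelial contacts. Pcdh12 encodes a protocadherin also called VE-cadherin-2, which is found at endothelial contacts.

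After filtering, 12892 vehicle barcodes (median 4327 unique molecular identifiers, UMIs) and 10610 fluconazole barcodes (median 5258 UMIs) remained. Of the barcode sequences, 45 occurred in both libraries. Barcodes were clustered without the 8 genes and named from marker genes that hold none of them, so each class name below stands for barcodes that are like that class. The endothelial class held 2852 vehicle barcodes (22.1% of the library) and 2737 fluconazole barcodes (25.8%), with 11198108 and 12236218 UMIs. The class was named from 10 endothelial markers, so they are no separate check of the label. All 10 of 10 had at least 1 UMI there, as they also had in microglia. Their summed level in the endothelial class was 19514 counts per 1000000 UMIs of the class (CPM) in vehicle and 20057 CPM in fluconazole. Pericyte markers summed to 291 and 375 CPM, and microglial markers to 358 and 289 CPM, in the same barcodes. Red blood cell markers summed to 6861 and 5023 CPM there, but only to 464 and 210.2 CPM in the capillary segment. Shank3 itself was counted in both libraries, at 48.7 and 53.6 CPM over all kept barcodes, which does not check the labels because both groups are knockouts and 3′ tags need not lie in a deleted part.

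The RefSeq promoter table (GRCm38.p6) matched 3 of the 8 genes, the tight junction members Cldn5, Ocln and Tjp1. Their upstream stretches are shown for this reason, and any part of them in the ratios between the libraries was not tested. Each is the 250 bases before the annotated start, read 5′ to 3′ on the gene's strand; for Ocln the first of its annotated starts is used. The Tjp1 start lies inside the gene, 156537 bases from the 5′ end of its longest annotated span and 5 bases from an annotated transcript start. Capitals mark GGAA or its reverse complement TTCC, the core of ETS-family sites.
Cldn5 (chr16:18776597-18776846, plus strand): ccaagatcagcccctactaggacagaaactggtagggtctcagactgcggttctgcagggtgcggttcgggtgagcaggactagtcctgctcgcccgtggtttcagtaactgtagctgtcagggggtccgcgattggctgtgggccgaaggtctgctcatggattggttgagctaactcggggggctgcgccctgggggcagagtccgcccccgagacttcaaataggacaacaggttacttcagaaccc
Ocln (chr13:100552719-100552968, minus strand): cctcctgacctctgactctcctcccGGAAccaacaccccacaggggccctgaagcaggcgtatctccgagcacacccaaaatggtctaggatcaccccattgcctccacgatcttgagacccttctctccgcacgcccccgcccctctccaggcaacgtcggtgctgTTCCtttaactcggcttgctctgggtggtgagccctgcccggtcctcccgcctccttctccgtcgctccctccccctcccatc
Tjp1 (chr7:65371245-65371494, minus strand): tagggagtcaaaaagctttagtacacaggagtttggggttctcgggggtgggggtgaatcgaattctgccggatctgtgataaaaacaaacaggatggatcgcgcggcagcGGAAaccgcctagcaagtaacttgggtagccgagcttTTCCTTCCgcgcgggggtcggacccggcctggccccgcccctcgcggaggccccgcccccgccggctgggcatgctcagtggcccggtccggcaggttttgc

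The Cldn5 stretch held 0 of these GGAA matches, the Ocln stretch 2 and the Tjp1 stretch 3, whereas 93.4% of 32851 RefSeq promoters of the same length held at least 1. The motif GGGCGG (either strand), a GC box, occurred 1 time in Cldn5, 1 time in Ocln and 2 times in Tjp1, and in 32.7% of all promoters. GC content was 59.6%, 64.0% and 63.2%, against a median of 52.4%. These matches describe letters in a window and were not set against any binding data.

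Cldn5 was the gene of the tight junction strand with a lower level in the fluconazole library. In the endothelial class it stood at 5616 CPM (5572 to 5659.9) in vehicle, from 62887 UMIs, and at 4308 CPM (4271 to 4345) in fluconazole, from 52714 UMIs. The log2 ratio of fluconazole over vehicle was -0.38 (-0.40 to -0.37), a level 1.30-fold higher in vehicle. Of the 14913 genes with at least 20 endothelial UMIs, 9.80% had a log2 ratio as low or lower, and of the 4522 genes with at least 1000 UMIs, 1.42%. At 1500 UMIs per barcode, 99.6% of vehicle and 98.6% of fluconazole endothelial barcodes held a Cldn5 UMI. In microglia, which should lack claudin-5, the shares at that depth were 10.7% and 6.91%. At full depth the microglial shares were 27.2% and 22.6%, and the endothelial shares 98.9% and 99.1%, with median depths of 2898 and 3276 UMIs in the endothelial class.

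Ocln and Tjp1 stood on the other side of 0. Ocln, the occludin gene, was at 291 CPM (3259 UMIs) in vehicle and 316 CPM (3863 UMIs) in fluconazole, a log2 ratio of 0.12 (0.05 to 0.19). Tjp1, the ZO-1 scaffold gene, was at 1284 and 1466 CPM (14380 and 17944 UMIs), a log2 ratio of 0.19 (0.16 to 0.22). The tight junction genes therefore did not share a direction in the endothelial class. Thinned to 1500 UMIs, 35.1% of vehicle and 36.9% of fluconazole endothelial barcodes held an Ocln UMI, against 1.28% and 1.47% of microglia. For Tjp1 the thinned shares were 80.2% and 83.1% in the endothelial class and 26.1% and 29.6% in microglia.

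The adherens junction gene Cdh5 and the contact gene Pecam1 differed least between the libraries. Cdh5 was at 466 CPM (5217 UMIs) in vehicle and 453 CPM (5545 UMIs) in fluconazole, with a log2 ratio of -0.04 (-0.09 to 0.01). Pecam1 was at 709.6 and 701 CPM (7946 and 8581 UMIs), with a log2 ratio of -0.02 (-0.06 to 0.03). Both intervals include 0, so neither difference was larger than counting error. Of the other immunoglobulin-domain genes, Jam2 was at 271 CPM (3040 UMIs) in vehicle and 311 CPM (3803 UMIs) in fluconazole, a log2 ratio of 0.20 (0.13 to 0.26). Esam was at 831 CPM (9307 UMIs) and 763 CPM (9334 UMIs), a log2 ratio of -0.12 (-0.17 to -0.08). These Jam2 and Esam differences exceed counting error in opposite directions and remain under 1.5-fold.

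Pcdh12, the protocadherin, was the sparse member and the one with the large difference. It gave 114 UMIs in 97 of 2852 vehicle endothelial barcodes (3.40%) and 31 UMIs in 27 of 2737 fluconazole barcodes (0.986%). This equals 10.2 CPM in vehicle and 2.53 CPM in fluconazole, a log2 ratio of -2.01 (-2.63 to -1.42). The vehicle level was 4.02-fold higher, with a counting interval of 2.68 to 6.19. No barcode carried the difference: the fullest one held 2.63% of the vehicle UMIs and 6.45% of the fluconazole UMIs. Thinned to 1500 UMIs, 1.56% (1.11 to 2.14) of vehicle and 0.278% (0.112 to 0.571) of fluconazole endothelial barcodes held a Pcdh12 UMI, against 0.0321% and 0.0421% of microglia. Over all kept barcodes the gene had 160 UMIs in vehicle and 58 in fluconazole, of which 71.2% and 53.4% were endothelial.

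A difference of at least 1.5-fold between the libraries was called. In the endothelial class 1 of the 8 genes, Pcdh12, was called lower in fluconazole, where 4.77% of the 14913 genes tested were. None of the 8 (0) was called higher, against a background of 4.18%. The median log2 ratio was -0.03 over the 8 genes and -0.01 over all genes tested, with 5 of the 8 below 0 and 3 above. The quartiles of all genes tested were -0.15 and 0.14: Ocln, Cdh5, Pecam1 and Esam were inside them, Pcdh12 and Cldn5 below them, and Tjp1 and Jam2 above. Of the genes with at least 1000 UMIs, 8.82% had a log2 ratio as high as that of Tjp1 or higher, and 8.56% as high as that of Jam2.

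**Figure D1:**
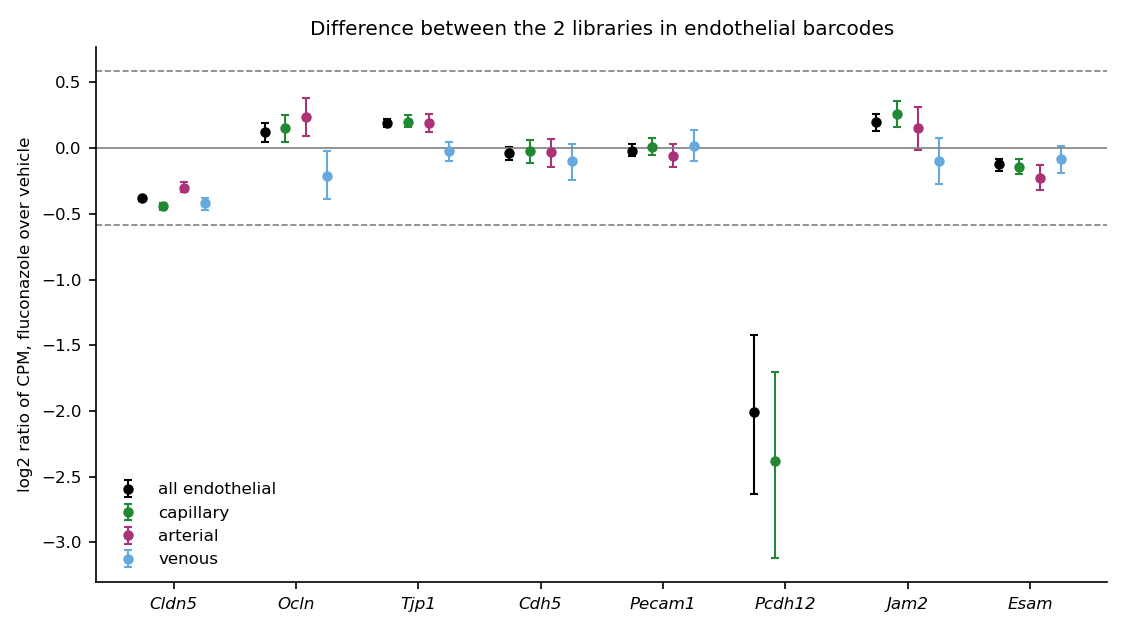
Log2 ratio of CPM, fluconazole over vehicle (vertical axis), for the 8 genes in all endothelial barcodes and in the capillary, arterial and venous segments; points are the 2 libraries' ratio, bars the 95% counting interval, dashed lines 1.5-fold, and ratios from fewer than 20 UMIs are left out. Pcdh12 lies near -2, Cldn5 lies below 0 in every group shown, and the remaining genes lie within 1.5-fold.

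Endothelial barcodes were divided into segments by marker genes: capillary (1439 vehicle and 1476 fluconazole barcodes), arterial (627 and 630) and venous (226 and 195). A further 560 and 436 endothelial barcodes were placed in no segment. In its own segment each of the 10 arterial, 8 capillary and 10 venous markers had at least 1 UMI. The segments were named from these markers, so this is no separate check of the names. Capillary and venous barcodes also held UMIs of 10 of 10 arterial markers. Arterial markers summed in vehicle to 157 CPM in capillary, 295 CPM in venous and 4409.5 CPM in arterial barcodes. Cldn5 was highest in capillary endothelium, at 6378 CPM in vehicle and 4694 CPM in fluconazole. Arterial levels were 5290.3 and 4307 CPM, and venous levels 4566 and 3403 CPM, so the order capillary, arterial, venous held in both libraries. The log2 ratio between libraries was -0.44 (-0.47 to -0.42) in capillary, -0.30 (-0.33 to -0.26) in arterial and -0.42 (-0.47 to -0.38) in venous endothelium.

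Cdh5 and Pecam1 were highest in arterial endothelium. Cdh5 was at 559.6 and 548 CPM in the arterial segment (vehicle, then fluconazole), at 488 and 454 CPM in the venous and at 428 and 421 CPM in the capillary segment. Its log2 ratio of arterial over capillary was 0.39 (0.29 to 0.49) in vehicle and 0.38 (0.29 to 0.47) in fluconazole, so VE-cadherin transcripts had an arterial excess of similar size in both libraries. Pecam1 was at 829.6 and 797 CPM in arterial, 710.1 and 717 CPM in capillary, and 575 and 583 CPM in venous endothelium.

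Tjp1, Esam, Jam2 and Ocln had lower arterial than capillary levels in both libraries. Tjp1 was at 1080.4 and 1232 CPM in arterial against 1413 and 1626 CPM in capillary endothelium, with log2 ratios of -0.39 and -0.40. Esam was at 699 and 598 CPM against 929.5 and 843 CPM, with log2 ratios of -0.41 and -0.50. Jam2 was at 234 and 259 CPM against 295 and 354 CPM, and Ocln at 265 and 313 CPM against 324 and 359 CPM. In the venous segment Tjp1 was at 1609.6 and 1586 CPM, Esam at 857 and 809 CPM, Jam2 at 295 and 276 CPM and Ocln at 283 and 245 CPM. Tjp1 was higher in venous than in capillary endothelium in vehicle (log2 ratio 0.19, 0.12 to 0.25), and in fluconazole the difference was within counting error (-0.04, -0.09 to 0.02). The venous and capillary levels of Jam2 were equal in vehicle (log2 ratio of venous over capillary 0.00, -0.15 to 0.14) and lower in venous endothelium in fluconazole (-0.36, -0.50 to -0.22).

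Pcdh12 was mainly capillary in the vehicle library. It had 96 UMIs (20.2 CPM) in capillary, 2 UMIs (0.799 CPM) in arterial and 6 UMIs (3.42 CPM) in venous endothelium there. In the fluconazole library it had 22 UMIs (3.89 CPM), 0 UMIs and 8 UMIs (4.06 CPM). The capillary level in vehicle was 25.3-fold above the arterial one, with a counting interval of 6.80 to 212. In fluconazole a count of 0 among 630 arterial barcodes allows up to 0.476% of barcodes with a UMI and 1.07 CPM (3 counts in the segment). The counting interval of the capillary level over the arterial one starts there at 2.72-fold. Between libraries the capillary log2 ratio was -2.38 (-3.12 to -1.70). Venous levels differed by less than counting error, with a log2 ratio of 0.25 (-1.47 to 2.05), from UMI counts under 20. The capillary segment of the vehicle library therefore held most endothelial Pcdh12 UMIs.

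Past 1.5-fold in both libraries, 1 of the 8 genes (Pcdh12) was lower in arterial than in capillary endothelium, against 5.87% of 12018 genes tested, and 0 were higher, against 6.33%. The Pcdh12 call rests on 2 and 0 arterial UMIs, and it ends under 3 alternatives (a stricter barcode filter, thinned barcodes and a minimum of 100 UMIs), where the gene has too few UMIs to be tested. Between venous and capillary endothelium 0 of the 8 were past 1.5-fold in both libraries in either direction, where 7.66% of 11811 genes were lower and 5.99% higher. In vehicle alone Pcdh12 was lower in venous endothelium (log2 ratio -2.56, -4.04 to -1.39), from 6 venous and 96 capillary UMIs. In fluconazole its ratio was 0.06 (-1.31 to 1.29). Between the libraries within segments, Pcdh12 was the gene called, lower in capillary endothelium (background 5.55% lower and 4.33% higher). No gene was called in arterial (0 of 7 with 20 UMIs, background 4.86% lower and 5.25% higher) or venous endothelium (0 of 7, background 6.15% and 6.05%).

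**Figure D2:**
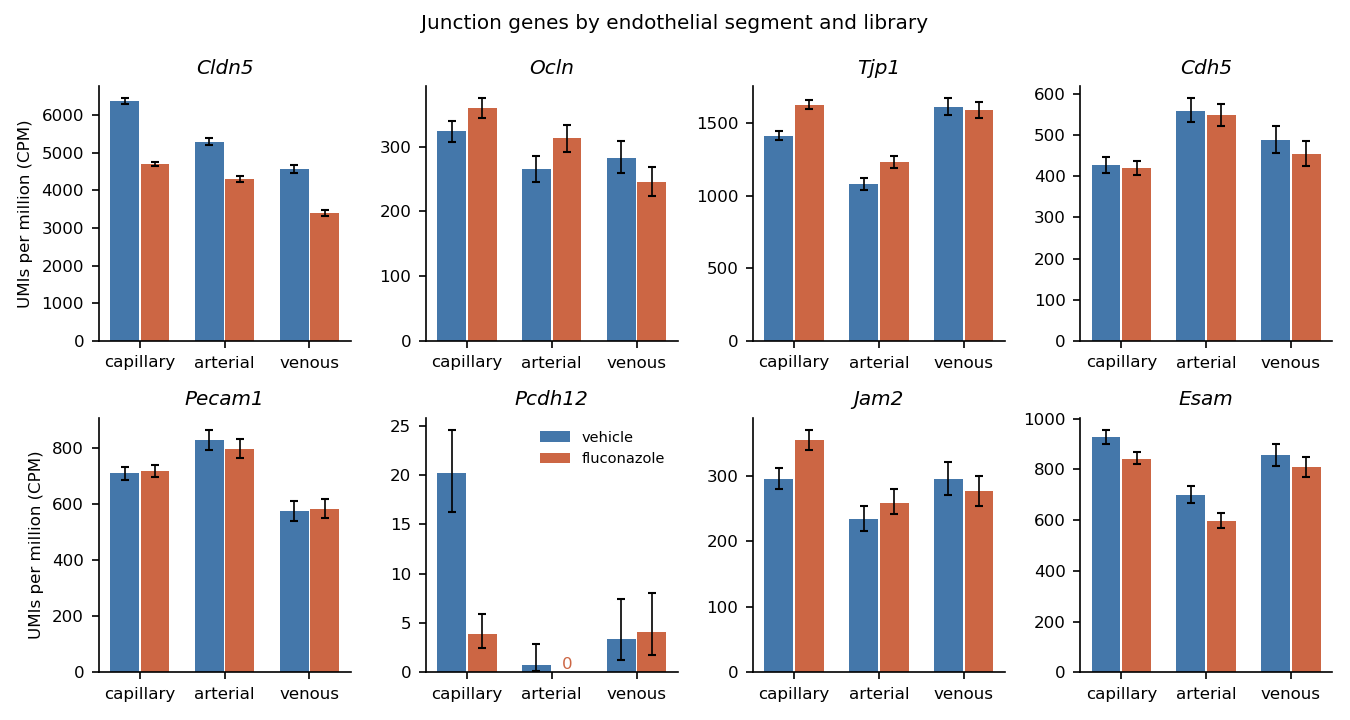
Level of each gene in CPM (vertical axis, from 0, scaled to each gene) in capillary, arterial and venous endothelium; bars are the vehicle and fluconazole libraries and whiskers the 95% counting interval. Cldn5 is highest in capillary (6378 and 4694 CPM) and lowest in venous endothelium in both libraries, Cdh5 and Pecam1 peak in the arterial segment, and the capillary Pcdh12 bar is 20.2 CPM in vehicle and 3.89 CPM in fluconazole.

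Within the endothelial class, 8 sub-clusters stayed under the cut for markers of other classes. Of these, 1 arterial sub-cluster was raised in 1 of the 7 pericyte markers and the venous one in 2, and the other 6 in none of another class. Barcodes of 1 library share their source, so sub-clusters are not replicates. Cldn5 was lower in fluconazole in 8 of 8 sub-clusters, with log2 ratios from -0.50 to -0.19. Esam was lower in 8 of 8 as well, from -0.32 to -0.01. Tjp1, Ocln and Jam2 were higher in 7 of 8 sub-clusters, and the venous sub-cluster was the exception for each; the part of its pericyte markers in this was not tested. Pcdh12 had at least 20 UMIs in 4 sub-clusters, all capillary. In these it gave 19 vehicle and 6 fluconazole UMIs, 41 and 7, 18 and 6, and 18 and 3. All 4 log2 ratios were below 0, the lowest being -2.86, and the interval of the third sub-cluster, -2.62 to 0.40, includes 0.

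**Figure D3:**
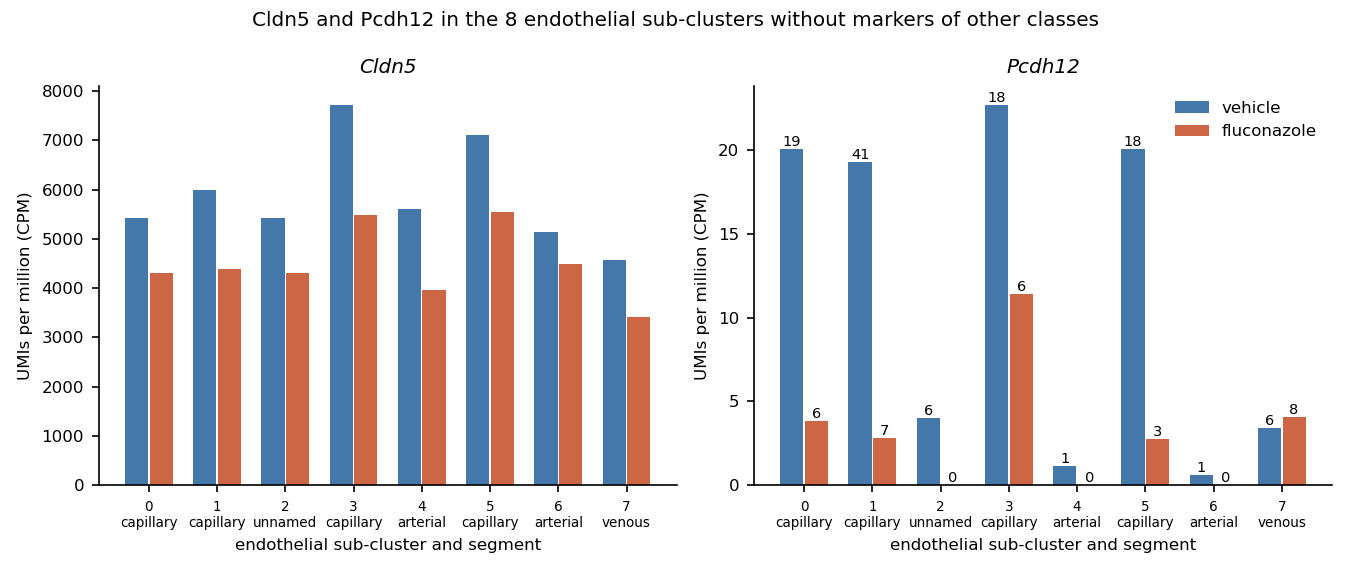
Cldn5 and Pcdh12 in CPM (vertical axes, from 0) in 8 endothelial sub-clusters (horizontal axis, with the segment each was given) in the vehicle and fluconazole libraries; numbers on the Pcdh12 bars are UMIs. The fluconazole Cldn5 bar is the lower one in 8 of 8 sub-clusters. In vehicle Pcdh12 is largely found in the 4 capillary sub-clusters, while the fluconazole venous bar (4.06 CPM, 8 UMIs) is among the higher ones of its library.

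Levels were compared across 14 classes, each with 50 or more barcodes per library. For 5 of the 8 genes it was at least 2-fold above each of the 13 other classes in both libraries, against 2.42% of the 14913 genes tested. Cldn5 was 16.9-fold above the next class, blood leukocytes, in vehicle and 24.6-fold above pericytes in fluconazole. The class next to it for Ocln and Cdh5 was fibroblasts in both libraries. Ocln was at 36.1 and 28.8 CPM there, 8.06-fold below the vehicle endothelial level, and Cdh5 was exceeded 4.21-fold and 3.48-fold. Pecam1 exceeded blood leukocytes 5.78-fold and 7.20-fold. Jam2 was 2.91-fold above astrocytes in vehicle and 2.75-fold above oligodendrocyte precursors in fluconazole. Over the 13 other classes Cldn5 ranged from 73.0 to 331 CPM in vehicle and from 43.7 to 175 CPM in fluconazole, and Ocln from 3.48 to 36.1 CPM and from 1.84 to 28.8 CPM. Cdh5 ranged from 4.44 to 111 CPM and from 4.48 to 130.3 CPM, and Pecam1 from 9.57 to 123 CPM and from 5.38 to 97.5 CPM. Jam2 ranged from 7.83 to 93.4 CPM and from 5.52 to 113 CPM. The exceptions to this endothelial excess were Tjp1, Esam and Pcdh12. Tjp1 was 2.02-fold and 1.65-fold above fibroblasts, and Esam 1.94-fold and 1.95-fold above pericytes. Pcdh12 was higher in pericytes (17.7 CPM in vehicle and 6.88 CPM in fluconazole) than in the endothelial class, from 13 and 7 UMIs, and the vehicle interval of 9.40 to 30.2 CPM overlaps the endothelial one. The capillary segment alone was at 20.2 CPM (16.3 to 24.6) in vehicle and 3.89 CPM in fluconazole, so in vehicle it was not below pericytes. Vascular smooth muscle gave 7 and 3 Pcdh12 UMIs (10.4 and 3.51 CPM), and 6 of the other classes in vehicle and 7 in fluconazole were at 0 UMIs. These other levels rest on too few UMIs to be ordered.

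UMIs of endothelial genes also occurred in every other class, and free RNA or joined cells would carry all endothelial genes at the same ratio. The level of a gene in a class, as a percent of its endothelial level, was therefore set beside the same percent for the summed 10 endothelial markers. For Cldn5 the first percent divided by the second lay between 0.484 and 1.20 in 13 of 13 classes and both libraries, with a median of 0.954. It was lowest in astrocytes (0.484 and 0.522) and pericytes (0.565 and 0.666), and lay between 0.796 and 1.20 in the remaining 11 classes. These low values were not particular to Cldn5. In astrocytes Pecam1 (0.528 and 0.579), Esam (0.530 and 0.551), Ocln and Cdh5 also stood below the marker level, and Tjp1 and Jam2 above it. In pericytes Cdh5 (0.671 and 0.712), Pecam1 and Jam2 stood below it, and Tjp1, Esam and Pcdh12 above it. Whether the summed markers themselves were raised in these 2 classes was not tested. Over the 87 pairs of gene and class with at least 20 UMIs, 26 were past 2-fold in both libraries, and Tjp1 (11 classes) and Jam2 (8 classes) held most of them. No share over all genes stands beside this count, so it only describes the 8 genes.

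Tjp1, whose scaffold is shared by many cell types, was 19.5 and 19.1 times the marker percent in glutamatergic neurons, where it reached 466 and 465 CPM. In fibroblasts it was at 637 and 887 CPM, in pericytes at 577 and 719 CPM and in astrocytes at 568 and 604 CPM. It was near the marker percent in border macrophages (71.1 and 56.8 CPM, 1.70 and 1.25 times). Jam2 was above the marker percent in oligodendrocyte precursors (79.6 and 113 CPM, 11.8 and 9.87 times), microglia (46.9 and 42.5 CPM, 15.9 and 11.3 times) and astrocytes (93.4 and 83.7 CPM, 5.88 and 4.35 times). In pericytes Jam2 was not (10.9 and 11.8 CPM, 0.708 and 0.623 times).

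Esam was past 2 times the marker percent in both libraries in the mural classes alone: pericytes (429 and 392 CPM, 9.14 and 8.43 times) and vascular smooth muscle (355 and 352 CPM, 20.7 and 11.8 times). Pecam1, which leukocytes and platelets also use, was above it in microglia (28.4 and 28.1 CPM, 3.70 and 3.32 times) and blood leukocytes (123 and 97.5 CPM, 2.49 and 10.2 times). Cdh5 was above it in fibroblasts, at 111 and 130.3 CPM, or 3.98 and 6.01 times. That excess was present in both fibroblast clusters, with Cdh5 at 119 CPM in vehicle and 126 CPM in fluconazole in the larger and at 101 and 135 CPM in the smaller. Ocln was above the marker percent in microglia, at 8.03 and 9.28 CPM or 2.55 and 2.44 times. Its level in fibroblasts, 36.1 and 28.8 CPM, was 2.08 and 1.90 times the marker percent.

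**Figure D4:**
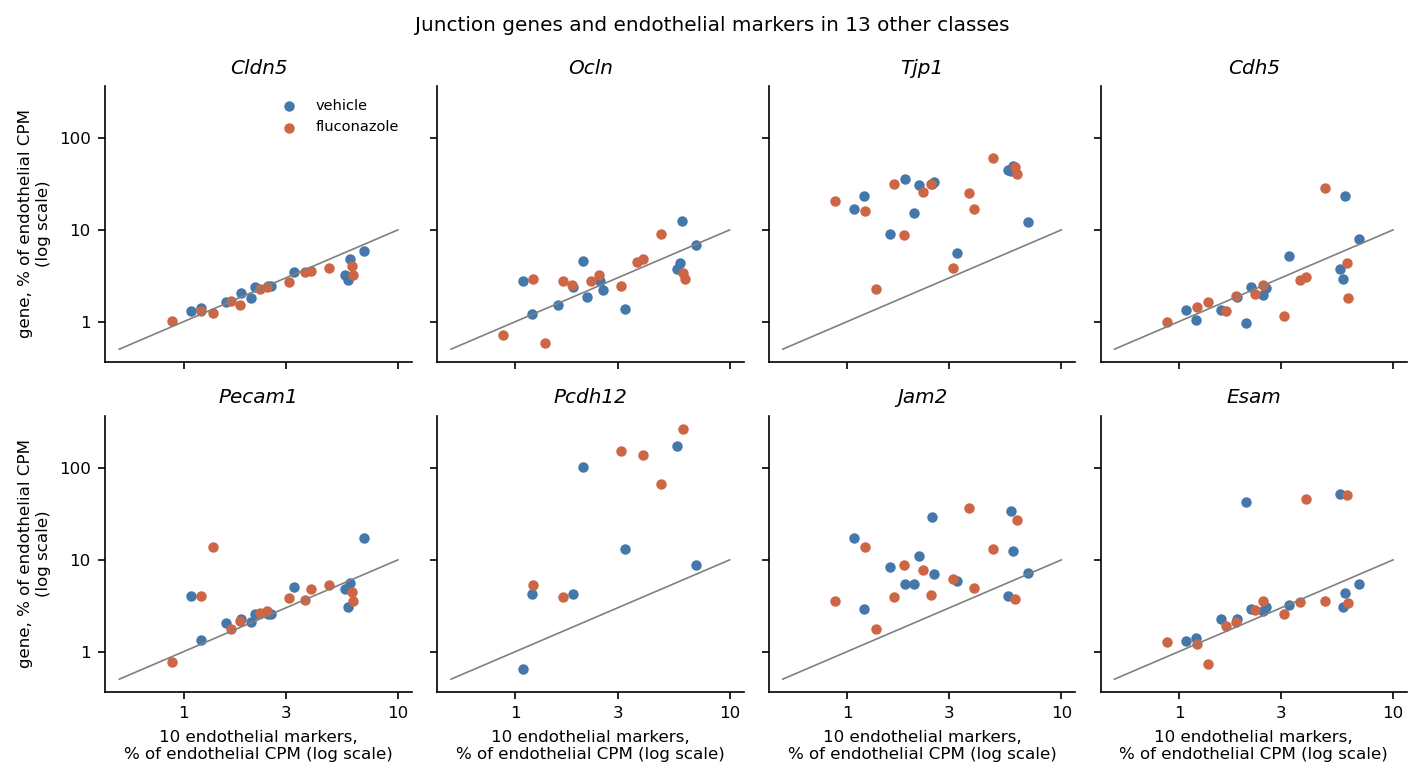
Level of each gene in the 13 other classes as a percent of its endothelial level (vertical axis, log scale) against the same percent for the 10 summed endothelial markers (horizontal axis, log scale); points are classes in the vehicle or fluconazole library, the line marks equal percents, and classes with 0 UMIs are left out. Cldn5 points lie around or below the line, with ratios of 0.484 to 1.20, Tjp1 points lie above it, and Esam has its mural classes far above it; most Pcdh12 points rest on fewer than 20 UMIs.

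Calls between the libraries in these other classes went with the marker level in some places and not in others. In blood leukocytes (251 vehicle and 98 fluconazole barcodes) 6 of the 7 genes with at least 20 UMIs were called lower in fluconazole, where 18.1% of 8731 genes were. Ocln (22 and 1 UMIs) and Jam2 (22 and 3 UMIs) passed that minimum through the vehicle library. Their calls in this class therefore lean on the filter. Cldn5 there was at 331 CPM in vehicle and 53.3 CPM in fluconazole, and the endothelial markers at 6.95% and 1.37% of their endothelial level. Pecam1, the gene not called, was at 123 and 97.5 CPM. In oligodendrocytes 3 of 7 were called lower (Cldn5, Ocln and Pecam1; background 4.78%), in border macrophages 2 of 6 (9.59%), in glutamatergic neurons 1 of 7, Cldn5 (6.12%), and in fibroblasts 1 of 7, also Cldn5 (13.6%). In vascular smooth muscle 2 of 6, Cldn5 and Pecam1, were called higher (9.22%). The Cldn5 call there rested on 1 fluconazole barcode with 24.2% of its 132 UMIs: without the fullest barcode of each library the log2 ratio was 0.45 (-0.03 to 0.94), under 1.5-fold. In pericytes 1 of 7, Pcdh12, was called lower (8.56%), with a log2 ratio of -1.36 (-2.93 to 0.07) from 13 and 7 UMIs, so the lower Pcdh12 level was not shown to be particular to endothelium. The marker percent there was 5.65% and 6.09%. Cdh5 was called lower in astrocytes (-0.73, -1.65 to 0.17; 1 of 7, background 7.16%). Ocln was called higher in GABAergic neurons (0.70, -0.28 to 1.73; background 5.10%), striatal spiny neurons (0.66, -0.40 to 1.74; 5.79%) and neuroblasts (0.85, -0.35 to 2.05; 4.64%), each as 1 of 7. These 5 intervals include 0, as does that of Ocln in oligodendrocytes (-0.63, -1.94 to 0.59, from 16 and 10 UMIs). Cldn5 had a log2 ratio below 0 in 11 of 13 other classes and above 0 in 2. Among the larger classes it was at 114 and 73.0 CPM in glutamatergic neurons and at 73.0 and 55.7 CPM in microglia, where the marker percent was 1.86% and 1.66%, and 1.08% and 1.21%. The part of free endothelial RNA in these values was not tested beyond this comparison.

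The number of the 8 genes seen in 1 barcode was counted as a description of detection, since its mean is the sum of the shares of the single genes. Thinned to 1500 UMIs, a vehicle endothelial barcode held UMIs of a mean of 4.32 of the 8 genes and a fluconazole barcode of 4.36. At least 4 genes were found in 75.5% and 76.9% of barcodes. In microglia the means were 0.513 and 0.492, and in glutamatergic neurons 0.727 and 0.680, with Tjp1 the most frequent gene in microglia (26.1% and 29.6%). By segment the share with at least 4 genes was 79.1% and 82.1% in capillary, 74.4% and 74.1% in arterial and 73.1% and 71.5% in venous endothelium. Thinning left out 417 vehicle and 217 fluconazole endothelial barcodes.

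The wider junction machinery was described with 7 gene lists, of which 81 of 92 listed genes had at least 20 endothelial UMIs. None of these 81 (0) was past 1.5-fold between the libraries in either direction, against backgrounds of 4.77% lower and 4.18% higher. Those backgrounds hold all 14913 genes, of which 4522 had at least 1000 UMIs. Among the 4522, 1.42% had a log2 ratio of -0.38 or lower, a value still under 1.5-fold. The 0 was therefore not set against genes of like UMI count. Of the 81, 48 were below 0 and 33 above. Membrane proteins of the tight junction had a median log2 ratio of 0.06 over 8 genes. Lsr, the tricellular junction receptor, was at 276 and 254 CPM, and F11r (JAM-A) at 96.3 and 101 CPM. Plaque proteins had a median of 0.00 over 13 genes. Cgnl1 (paracingulin) was at 353 and 346 CPM, and the polarity gene Pard3 at 302 and 337 CPM.

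Adherens junction proteins had a median of -0.11 over 17 genes, with 14 below 0. Among them Ptprb (VE-PTP, the phosphatase that binds VE-cadherin) was at 1962 and 2106 CPM, a log2 ratio of 0.10, and the receptor phosphatase gene Ptprm was at 1439 and 1331 CPM, a log2 ratio of -0.11. The 4 connexins had a median of 0.02, with Gjc1 at 168 and 197 CPM and Gja1 at 39.8 and 51.4 CPM. Junction stabilisers of the CCM and RAP1 pathways had a median of -0.08 over 14 genes. Heg1, the receptor that anchors KRIT1, was at 631 and 787 CPM, a log2 ratio of 0.32 (0.28 to 0.36), and the angiopoietin receptor gene Tek was at 599 and 557 CPM.

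Transcription factors of endothelial junction genes had the lowest median of the 7 lists, -0.19 over 13 genes, with 11 below 0. The flow-induced factor Klf2 was at 4028 CPM in vehicle and 3428 CPM in fluconazole, a log2 ratio of -0.23 (-0.25 to -0.21), and Klf4 was at 1096 and 1033 CPM. Genes of the Wnt and Norrin receptor pathway, which induces claudin-5 and the barrier state in brain endothelium, had a median of 0.08 over 12 genes. The Wnt effector Lef1 was at 922 and 784 CPM, a log2 ratio of -0.23 (-0.27 to -0.19), and the Wnt target Apcdd1 at 377 and 396 CPM. These list values are descriptions of 2 libraries, beside a median of -0.01 over all genes.

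**Figure D5:**
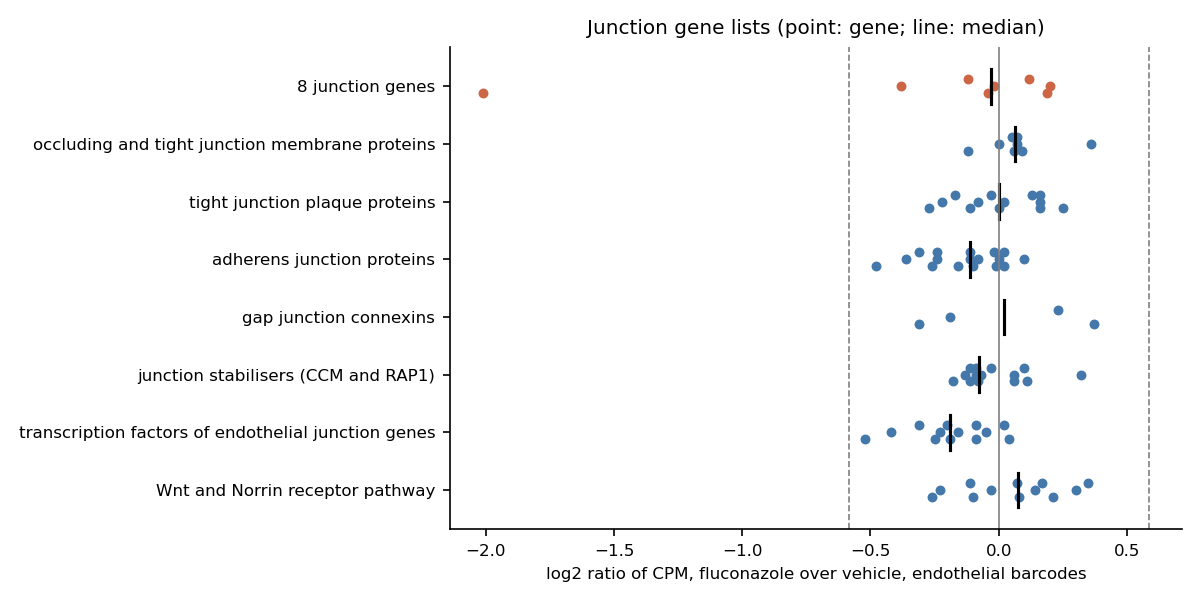
Log2 ratio of CPM, fluconazole over vehicle, in the endothelial class (horizontal axis) for the 8 junction genes and for each measured gene of 7 junction lists (rows); points are genes, black lines medians and dashed lines 1.5-fold. Pcdh12 at -2.01 is the only point outside the dashed lines.

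The genes whose levels went most closely with each junction gene were ranked by the Pearson r of log2(CPM + 1) over 28 points, which are 14 classes in 2 libraries and share each library's depth and free RNA. Cldn5 was most like Slco1a4 (r = 0.977), Itm2a (0.977) and Cyyr1 (0.974). Ocln was most like Ramp2, Itm2a (0.948) and Slco1a4 (0.948), and Cdh5 was most like Paqr5 (0.953), Ramp2 and Abcb1a (0.946). Pecam1 went with Ctla2a (0.942), Pglyrp1 (0.938) and Ly6a (0.936), and Esam with Car4 (0.975), Apold1 (0.969) and Tm4sf1 (0.967). Jam2 and Tjp1, the genes with levels well outside the endothelium, had lower top values, with Mfsd2a (0.851) for Jam2 and Clstn1 (0.850) for Tjp1. The nearest to Pcdh12 was Ecm1 (0.882), over levels that rest on few UMIs. Slco1a4 and Abcb1a are among the markers that named the endothelial class, so their high r was partly built in.

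The 6 protein-coding neighbours of Pcdh12 on its chromosome, 3 on each side, did not share its difference in the endothelial class. Their log2 ratios were -0.18 for Arap3, -0.08 for Pcdh1, 0.02 for Dele1, -0.04 for Rnf14, 0.00 for Gnpda1 and 0.09 for Ndfip1. Pcdh1, the protocadherin next but one, was at 99.3 CPM in vehicle and 94.1 CPM in fluconazole. Around Cldn5, 5 of 6 neighbours had at least 20 UMIs. Tbx1 was at 78.1 and 58.7 CPM, a log2 ratio of -0.41 (-0.56 to -0.27). The intervals of the other 4 include 0, with log2 ratios of -0.83 for Septin5 (from 13 and 8 UMIs), 0.18 for Cdc45, -0.10 for Ufd1 and 0.11 for 2510002D24Rik.

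The reference annotation (GENCODE vM21, GRCm38) places Cldn5 on chromosome 16 (18776847 to 18778262, plus strand), Ocln on chromosome 13 (100496507 to 100552718, minus), Tjp1 on chromosome 7 (65296165 to 65527781, minus) and Cdh5 on chromosome 8 (104101625 to 104144511, plus). Pecam1 lies on chromosome 11 (106654217 to 106750628, minus), Pcdh12 on chromosome 18 (38267089 to 38284402, minus), Jam2 on chromosome 16 (84774123 to 84825928, plus) and Esam on chromosome 9 (37528078 to 37538319, plus). The deposited matrices carry no coordinates. Cdh5 overlaps 1 antisense gene model over 4249 bases, and whether the counting used strand is not stated, so reads of that stretch cannot be told apart. Pcdh12, Cldn5, Ocln, Pecam1 and Esam overlap no other gene of that annotation.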

How the data were processed

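The 2 deposited matrices of UMI counts, 1 per library, were used, as whole numbers with no normalization by the authors per the file headers. The header names Cell Ranger 8.0.1. The submitters' processing notes list R 4.0.3, Seurat 4.0.0, the mm10 build and Cell Ranger 9.0.0. The annotation and the use of introns and strand in counting are not given in the sources used here. Each deposited barcode had at least 500 UMIs (14924 and 12637 barcodes, 76891692 and 78380009 UMIs).

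The barcode filter required 500 genes or more and no more than 5% mitochondrial UMIs, and Scrublet doublets (617 and 517) were removed. Clustering (scanpy 1.11.5, 2849 variable genes without the 8 junction genes, 30 components, Leiden resolution 1.0) gave 35 clusters, of which 29 were named, each from at least 3 markers. Endothelial barcodes were sub-clustered at resolution 0.8. Of them, 276 lay in sub-clusters with markers of other classes and were kept in the class but in no segment. A cluster of 281 barcodes with endothelial and pericyte markers stayed unnamed.

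UMIs were summed per class and library and scaled to CPM. Intervals (95%) are exact Poisson for CPM, Clopper-Pearson for shares and conditional binomial for ratios, treat UMIs as independent and leave out differences between mice and libraries. The summing and calling steps were tested on simulated data. Genes with at least 20 UMIs over both libraries entered each comparison (between segments, in each library). Named from the lists were genes past 1.5-fold and the 2 most abundant others; for likeness, the 3 highest r among genes with at least 200 UMIs. The members, lists and markers were chosen with earlier results of these data known.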

Additional observations from a re-analysis of the deposited data

Results flagged for a closer look

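Some genes had log2 ratios of fluconazole over vehicle past 1.5-fold in opposite directions in different classes, with counting intervals on opposite sides of 0; the differences between classes were not tested. Cldn5 was higher in fluconazole in vascular smooth muscle, with a log2 ratio of 0.60 (102 CPM in vehicle, 154 CPM in fluconazole). Of the 132 fluconazole UMIs, 24.2% lay in 1 barcode, and the share of barcodes with a UMI was 23.2% (17.2 to 30.1) in vehicle and 17.6% (12.2 to 24.2) in fluconazole, not higher. Without the fullest barcode of each library, chosen after seeing the data, the log2 ratio was 0.45 (-0.03 to 0.94), under 1.5-fold. Cldn5 was lower in blood leukocytes (-2.64), oligodendrocytes (-0.83), border macrophages (-0.75), fibroblasts (-0.71) and glutamatergic neurons (-0.65). Pecam1 was higher in vascular smooth muscle, with a log2 ratio of 1.20 from 10 and 29 UMIs (1.03, -0.14 to 2.33, without the fullest barcodes), and lower in oligodendrocytes (-0.83), from 44 and 24 UMIs. The summed endothelial markers differed in the same direction in each of these classes, but by unlike amounts. In vascular smooth muscle they stood at 2.06% of their endothelial level in vehicle and 3.92% in fluconazole. They were at 6.95% and 1.37% in blood leukocytes, and at 1.20% and 0.877% in oligodendrocytes. The marker difference was smaller in fibroblasts (5.97% and 4.79%), glutamatergic neurons (1.86% and 1.66%) and border macrophages (3.26% and 3.11%). Their part in the differences was not tested.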

How the results depend on the processing

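Of the counts recomputed under alternative settings, 108 of 113 stayed within 1.5 times of the value given, none (0) of the values changed sign past 1.5-fold, and 5 counts moved. The 1 gene lower in arterial than in capillary endothelium became 0 with barcodes of at least 1000 genes and at most 2.5% mitochondrial UMIs, with barcodes thinned to 1500 UMIs and with a minimum of 100 UMIs. In each, Pcdh12 no longer had the UMIs to be tested (11, 8 and 22 capillary UMIs in fluconazole). With thinned barcodes, 1 gene of the junction lists was lower past 1.5-fold (Nectin2, -0.74, against -0.48 unthinned) and 1 was higher (Pals1, 0.62, against 0.25). These genes were named after their values were seen. The endothelial log2 ratio of Pcdh12 lay between -2.33 and -1.98 over 9 settings, and that of Cldn5 between -0.40 and -0.36. Of the other single values, 333 lay within the counting interval, or within 0.1 for list medians, and 17 did not. Leaving out the 276 endothelial barcodes in mixed sub-clusters was chosen after seeing the data and moved no count. Median-of-ratios scaling shifted the endothelial class by 0.02 (log2). No paired analysis was possible because each treatment has 1 library, and no library could be left out for the same reason. Depth limits Pcdh12 outside capillary endothelium, where no segment held more than 8 UMIs in a library.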
